A study of Mus musculus with 4 samples.

Results

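The barcodes described here carried RNA of genes that mark undifferentiated spermatogonia, the earliest germ cells of the testis, in Znhit1 knockout testis at postnatal day 35. Kit and Stra8, genes of differentiating spermatogonia, were also seen together in 57 of the 163 barcodes. The barcodes were chosen from 1 droplet library by their counts of unique molecular identifiers (UMIs, which mark single captured RNA molecules). A barcode had to hold at least 1000 UMIs and 500 genes, with at most 10% of its UMIs from mitochondrial genes. It also had to hold at least 4 UMIs of the germ cell genes Ddx4 and Dazl together, at least 8 UMIs summed over Zbtb16, Glis3, Trim71, Egr4, Gfra1 and Etv5, and Sycp1 under 1000 CPM (counts of a gene scaled to a fixed total per barcode). The rule was met by 163 barcodes, called members here, of 4428 germ barcodes, which is 3.68% (Clopper-Pearson 95% interval, 3.15% to 4.28%). Of all 8121 barcodes past the filters they were 2.01%, and of the 1307 germ barcodes with Sycp1 under 1000 CPM they were 12.5%.

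The series holds 4 libraries of whole testis, with 1 each of Znhit1 knockout and control mice at postnatal days 16 and 35, made with a droplet kit that reads the 3′ ends of polyadenylated RNA. ZNHIT1 belongs to SRCAP, a chromatin remodeller that swaps histone H2A for its variant H2A.Z. The stated aim was to follow the loss of ZNHIT1 in germ cells. The counts of the day 35 Znhit1 knockout library were analysed here, so nothing below compares knockout with control. The labels call the genotypes CTRL and Znhit1_KO, and how the gene was deleted, in which cells, and how many animals were pooled are not given in the sources used here. With 1 library there is no test and no p-value, and all intervals cover counting error and say nothing of the spread between animals.

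Undifferentiated spermatogonia lie on the wall of the seminiferous tubule and include the stem cells that sustain sperm production. Sertoli cells secrete GDNF, which binds the co-receptor GFRA1 and the tyrosine kinase RET on the most primitive of these cells and raises transcription factors such as ETV5, EGR4, BCL6B and LHX1. Progenitors lose GFRA1 and gain NEUROG3, SOX3 and the retinoic acid receptor RARG. Retinoic acid then turns on STRA8 and the receptor KIT, and the cells divide as differentiating spermatogonia before they enter meiosis.

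Members held between 3446 and 42293 UMIs, with a median of 13746, against a median of 5730 in the 4265 other germ barcodes. A rule that asks for 8 UMIs favours deep barcodes, so levels are given as CPM of summed UMIs, 2483745 in members and 32616150 in other germ barcodes. Mitochondrial genes made up a median of 7.32% of UMIs in members and 6.18% in other germ barcodes. Scrublet called 4 of the 163 members (2.45%) doublets, against 179 of all 4428 germ barcodes (4.04%). The barcode sequences of 3 members were also listed in another library of the series. Leydig markers, all 5 detected, summed to 250 CPM in members and 383 CPM in other germ barcodes, with a median of 111 CPM and a highest value of 8095 CPM in a member, against 170 CPM and 16010.0 CPM in other germ barcodes. Sertoli markers summed to 144 CPM in members and 211 CPM in other germ barcodes, and macrophage markers to 21.7 CPM in members and 63.5 CPM in other germ barcodes. Peritubular myoid markers reached 5146 CPM in 1 member, with a median of 0 in members. Endothelial markers were at 13.7 CPM in members and 8.65 CPM in other germ barcodes. The stromal gene Lum and the spermatid genes Prm1 and Acrv1 were at 0 UMIs in members. What part RNA of other cells had in the values below was not tested.

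The 6 genes of the rule chose the members, so their values are a description. The gene with the most UMIs of the 6 was Glis3, a zinc finger factor that postnatal spermatogonia need, at 0 CPM in the lowest, 309 CPM in the median and 2058 CPM in the highest member, with 411 CPM over all members and 12.7 CPM over other germ barcodes. Trim71, an RNA-binding protein of stem and progenitor cells, was at 253 CPM in members and 19.6 CPM in other germ barcodes. Zbtb16, which encodes the repressor PLZF and is needed for self-renewal, was at 229 CPM in members and 19.1 CPM in other germ barcodes. These genes were seen in most members, Glis3 in 146, Trim71 in 150 and Zbtb16 in 144 of 163. The GDNF-pathway genes were spread less evenly. Egr4 was detected in 132 members and was at 190 CPM in members and 8.92 CPM in other germ barcodes. Gfra1 was detected in 91 members, with a median of 56.8 CPM and a highest value of 1326 CPM, and was at 124 CPM in members and 1.53 CPM in other germ barcodes. In barcodes with Sertoli markers Gfra1 was at 12.8 CPM. Etv5, an ETS factor, was detected in 51 members and was at 30.2 CPM in members, 11.8 CPM in other germ barcodes and 56.7 CPM in barcodes with Leydig markers. All 6 genes were detected in 22 members, 5 of them in 53, 4 in 56, 3 in 29 and 2 in 3 members. These counts are those that the rule summed, so they describe the choice and do not support the label.

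**Figure D1:**
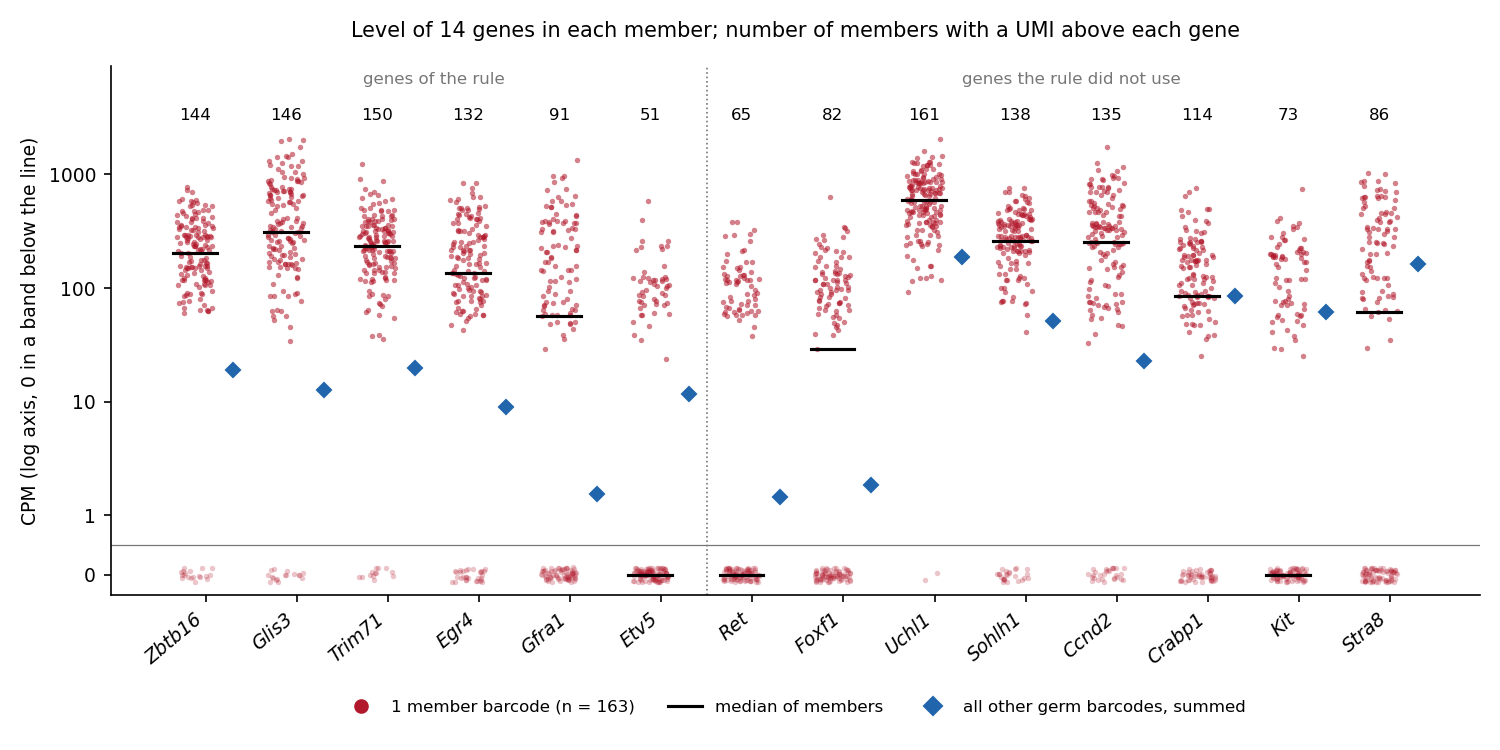
CPM of 14 genes in each of the 163 members (red points, black bar at their median) on a log axis with values of 0 in a band at the bottom, and the summed CPM of all other germ barcodes (blue diamonds). The 6 genes left of the dotted line are those of the rule, and Uchl1 and Sohlh1 lie above the other germ barcodes in most members. Kit and Stra8 are at 0 in many members and spread over a range of values in the others.

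To show the regions that precede a gene of the rule and the gene that defines the germ class used for comparison, the 250 bases before the RefSeq start of Glis3 and Crabp1 are given, with CG dinucleotides in capitals (RefSeq, GRCm38.p6). The Glis3 window lies on the minus strand at chr19:28680078-28680327 and the Crabp1 window on the plus strand at chr9:54764498-54764747.
Glis3: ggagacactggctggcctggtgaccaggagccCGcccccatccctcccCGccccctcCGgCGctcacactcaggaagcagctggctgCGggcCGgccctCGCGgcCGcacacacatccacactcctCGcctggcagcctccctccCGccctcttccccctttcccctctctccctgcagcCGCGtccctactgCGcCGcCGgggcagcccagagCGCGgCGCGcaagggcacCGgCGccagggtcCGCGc
Crabp1: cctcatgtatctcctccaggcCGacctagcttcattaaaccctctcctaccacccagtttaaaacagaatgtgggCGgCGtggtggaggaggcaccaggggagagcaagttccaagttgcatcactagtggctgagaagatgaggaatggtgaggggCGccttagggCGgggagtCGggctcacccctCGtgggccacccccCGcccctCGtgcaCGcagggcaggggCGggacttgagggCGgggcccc
The Glis3 window holds 24 CG dinucleotides at a GC content of 75.6%, and the Crabp1 window 12 at 63.6%. As many as in the Crabp1 window are found in 33.5% of 32851 such windows over all genes. An EGR motif, GCGGGGGCG, is in 2.57% of all windows, another EGR motif, GCGTGGGCG, in 0.536%, and an ETS motif, CCGGAAG, in 6.91%, counted on both strands. Windows were given for 11 of the rule genes and of the genes highest in members, and of these En1 alone held a motif, CCGGAAG. The match is a description of these letters and not of binding.

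Barcodes just inside and just outside the threshold were alike in some genes and not in others. The 18 members with exactly 8 UMIs of the rule genes held Kit at 192 CPM and Stra8 at 488 CPM, and the 23 barcodes left out with 7 UMIs held Kit at 194 CPM and Stra8 at 422 CPM. Ret was at 20.9 CPM in the 18 members and 19.7 CPM in the 23 barcodes, from 5 and 7 UMIs. Rule genes differed more, with Gfra1 at 37.6 CPM in the 18 members and 11.3 CPM in the 23 barcodes, and Glis3 at 134 CPM in the 18 members and 56.3 CPM in the 23 barcodes. Sohlh1, outside the rule, was at 292 CPM in the 18 members and 211 CPM in the 23 barcodes. The Sycp1 limit left out 22 barcodes with 8 or more UMIs of the rule genes, in which Sycp3 was at 956 CPM. Sycp3 was at 251 CPM over all members.

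Against all other germ barcodes, 17403 genes had at least 20 UMIs in both classes together. Of these, 3308 (19.0%) were higher in members by 2-fold or more and 3130 (18.0%) lower by as much, with a median log2 ratio of 0.05. These shares are the background for gene list counts against all other germ barcodes. List counts against Crabp1-positive barcodes, a class described below, have their own background of 10.5% higher and 9.44% lower. Since all genes of these barcodes come from cells the rule picked, the ratios describe and do not test. The minimum of 20 UMIs can also be met through members alone, which favours genes high in members in every such count.

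Genes of the stem cell state outside the rule were high in members. Of 16 genes, 14 had enough UMIs, 11 of the 14 were higher by 2-fold or more and 2 lower by as much, and the median log2 ratio was 3.88 (95% interval over genes, 0.57 to 4.97). Ret, the GDNF receptor kinase, was detected in 65 members and 0.868% of other germ barcodes, at 0 CPM in the median and 380 CPM in the highest member. Its level was 45.1 CPM in members and 1.44 CPM in other germ barcodes, a ratio of 31.3 (22.1 to 45.0). In barcodes with Sertoli markers Ret gave 10 UMIs in 6 of 80 barcodes, or 21.3 CPM. Foxc2, a forkhead factor of quiescent stem cells, was at 20.9 CPM in members and 0.460 CPM in other germ barcodes, a ratio of 45.5 (25.2 to 87.1). Lhx1, a LIM homeobox gene induced by GDNF, was at 15.3 CPM in members and 0.429 CPM in other germ barcodes, from 38 UMIs in 19 members. The POU factor gene Pou3f1 reached 786 CPM in 1 member and was at 132 CPM in members and 20.8 CPM in other germ barcodes. In the Crabp1-positive barcodes among them it was at 92.0 CPM, and the ratio of members over these was 1.44 (1.23 to 1.68). Tcl1, a coactivator of AKT kinases, was at 33.8 CPM in members and 1.17 CPM in other germ barcodes. Nanos2, an RNA-binding protein that keeps stem cells undifferentiated, gave 10 UMIs in 8 members and 2 UMIs in all other germ barcodes, too few for the list count, and Eomes gave 17 UMIs in 14 members and 8 in other germ barcodes.

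The exceptions in this list were Id4 and Cd82. Id4, an inhibitor of DNA binding that marks stem cells, was at 46.7 CPM in members and 97.4 CPM in other germ barcodes, 2.09-fold lower (1.73 to 2.53). The comparison class decides this direction. Id4 was at 125 CPM in the 3121 germ barcodes with Sycp1 at 1000 CPM or more, at 49.2 CPM in the 583 remaining barcodes with low Sycp1, at 32.8 CPM in the 227 Esx1-positive barcodes and at 9.58 CPM in the 334 Crabp1-positive barcodes. Against the Crabp1-positive barcodes alone Id4 was 4.87-fold higher in members (3.31 to 7.33). Cd82, which encodes a tetraspanin used to sort stem cells, gave 12 UMIs in members and was at 4.83 CPM in members and 13.9 CPM in other germ barcodes.

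Receptors and feedback genes of the growth factor pathways leaned the same way. Of 17 genes, 10 were higher by 2-fold or more and 2 lower by as much in members, with a median log2 ratio of 1.68 (0.53 to 2.11). Igf1r, the receptor of insulin-like growth factors, was detected in 156 members and was at 432 CPM in members, 100 CPM in other germ barcodes and 468 CPM in barcodes with Leydig markers. Etv4, an ETS factor related to Etv5, was at 18.5 CPM in members and 1.04 CPM in other germ barcodes, a ratio of 17.8 (11.2 to 28.5). Dusp6, a phosphatase that ERK signalling induces and that damps it, was at 33.4 CPM in members and 6.38 CPM in other germ barcodes, a ratio of 5.24 (4.01 to 6.79). The feedback inhibitors Spry1 and Spred2 were at ratios of 3.19 (2.02 to 4.90) and 3.37 (2.77 to 4.09). Fgfr1 was at 34.6 CPM in members and 10.8 CPM in other germ barcodes. Fgfr3, from 5 UMIs, and the macrophage receptor gene Csf1r, from 4 UMIs, were the 2 lower genes. Of 11 genes for surface proteins used to enrich spermatogonia, 7 were at least 2-fold higher and 1, Cd82, lower. Itga6, the integrin of the basement membrane, was at 60.8 CPM in members and 14.9 CPM in other germ barcodes, and Cd9 at 128 CPM in members and 41.0 CPM in other germ barcodes. Cdh1, which encodes E-cadherin, was at 8.45 CPM in members and 1.29 CPM in other germ barcodes, while Itgb1 (ratio 1.10, 0.987 to 1.23) and Epcam (ratio 0.921, 0.824 to 1.03) had intervals that held 1.

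Progenitor and maintenance genes were also high. Of 17 genes, 13 were higher by 2-fold or more and 0 lower by as much in members, with a median log2 ratio of 1.91 (1.29 to 2.77). Uchl1, a deubiquitinase that fills the cytoplasm of spermatogonia, was detected in 161 members, at 591 CPM in the median and 2041 CPM in the highest. It was at 681 CPM in members and 188 CPM in other germ barcodes. Sohlh1, a helix-loop-helix factor of spermatogonia, was at 269 CPM in members and 51.8 CPM in other germ barcodes. Sall4, a zinc finger partner of PLZF, was at 132 CPM in members and 14.7 CPM in other germ barcodes. The largest ratios were those of Upp1, a uridine phosphorylase, at 43.9 CPM in members and 2.15 CPM in other germ barcodes, and Nanos3, an RNA-binding protein of progenitors, at 41.1 CPM in members and 2.73 CPM in other germ barcodes. Neurog3, the helix-loop-helix factor of early progenitors, gave 28 UMIs in 24 members, a ratio of 12.3 (7.06 to 21.2). Lin28b and Taf4b did not follow, with ratios of 0.914 (0.817 to 1.02) and 0.855 (0.758 to 0.960).

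The differentiation list was split. Of 14 genes, 4 were higher by 2-fold or more and 5 lower by as much in members, with a median log2 ratio of -0.14 (-2.30 to 1.60). The higher genes were the cyclins Ccnd2 and Ccnd3, the sex-determination factor Dmrt1 and the DNA methyltransferase Dnmt3b. Ccnd2, cyclin D2, was at 0 CPM in the lowest, 252 CPM in the median and 1750 CPM in the highest member, and at 303 CPM over members and 23.1 CPM over other germ barcodes, a ratio of 13.1 (11.9 to 14.5). The lower genes act around the entry into meiosis. Meioc, which stabilises the meiotic programme, was at 36.2 CPM in members and 299 CPM in other germ barcodes, and the protease gene Prss50 was at 12.1 CPM in members and 159 CPM in other germ barcodes. Dmrtb1, Rhox13 and Ythdc2 were also lower. Kit, the receptor of stem cell factor, was detected in 73 members, at 0 CPM in the median and 740 CPM in the highest, and was at 88.2 CPM in members, 61.0 CPM in other germ barcodes and 182 CPM in barcodes with Leydig markers. Stra8, the retinoic acid target that precedes meiosis, was detected in 86 members, at 61.9 CPM in the median and 1028 CPM in the highest, and was at 212 CPM in members, 163 CPM in other germ barcodes and 4.74 CPM in barcodes with Leydig markers. In the retinoic acid list of 18 measured genes, 5 were at least 2-fold higher and 4 lower. All 3 retinoic acid receptors were higher, Rarb at 10.5 CPM in members and 2.58 CPM in other germ barcodes, Rarg at 18.5 CPM in members and 4.94 CPM in other germ barcodes, and Rara at 31.0 CPM in members and 13.4 CPM in other germ barcodes. Against Crabp1-positive barcodes Rarb had a ratio of 1.19 (0.684 to 2.07) and Rarg of 1.88 (1.19 to 2.99). There 1 of 15 retinoic acid genes was at least 2-fold higher and 2 lower, beside 10.5% and 9.44% of all genes. Cyp26a1, an enzyme that degrades retinoic acid, was at 7.65 CPM in members and 0.920 CPM in other germ barcodes. Lrat, which stores retinol as esters, gave 2 UMIs in members, and Aldh1a2, an enzyme that makes retinoic acid, was at 34.6 CPM in members and 83.1 CPM in other germ barcodes.

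**Figure D2:**
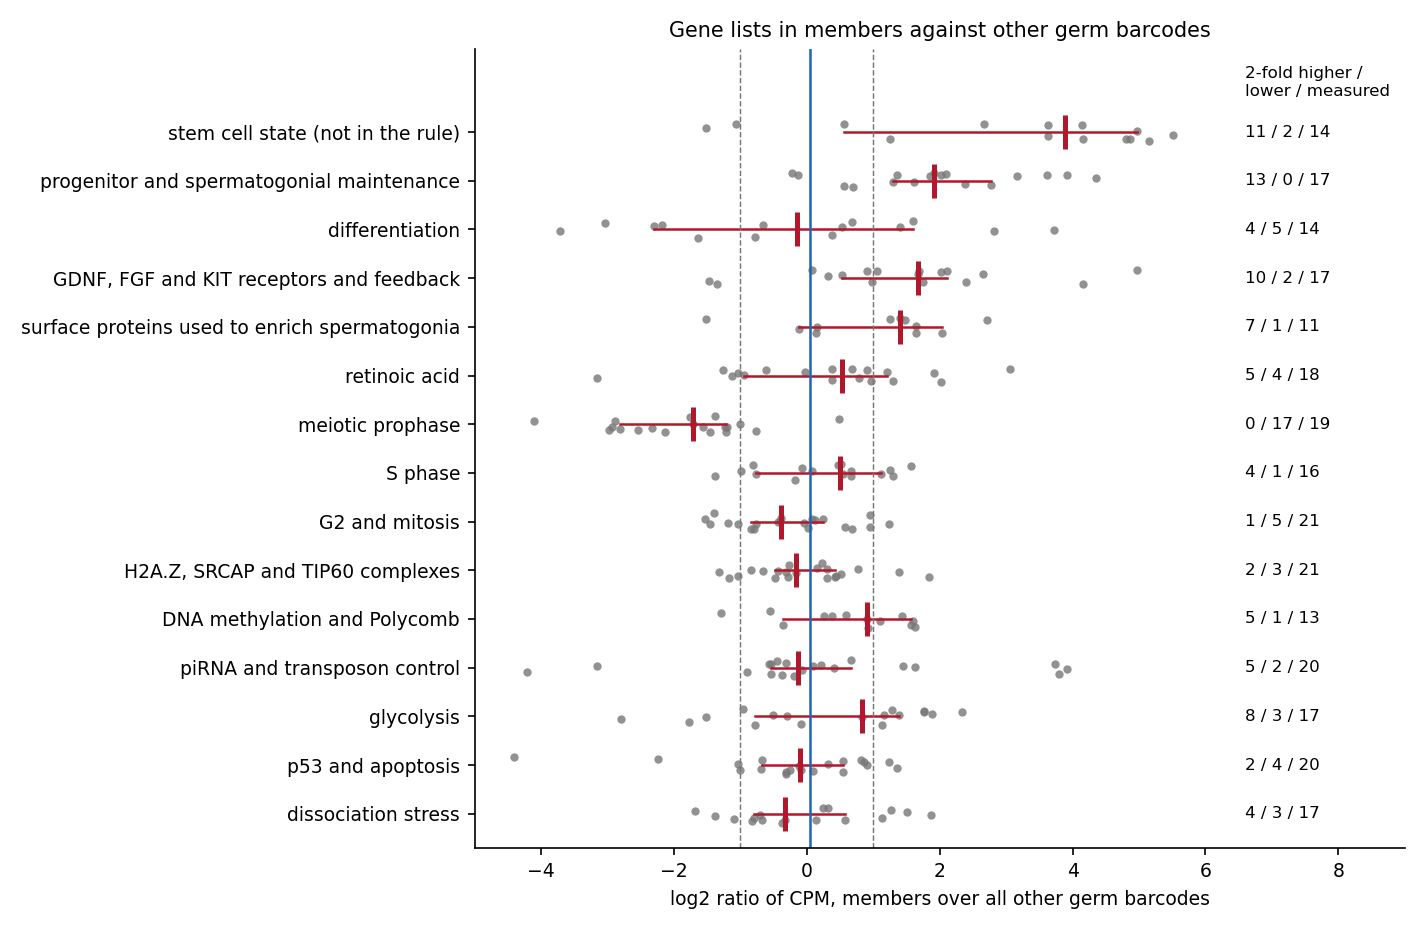
Log2 ratio of CPM, members over all other germ barcodes, for each measured gene (grey points) of 15 lists, with the median of each list and its 95% interval over genes (red) and the median over all 17403 genes (blue line). The stem cell list has its median at 3.88 and the meiotic prophase list at -1.72, and the numbers at the right count genes higher by 2-fold, lower by 2-fold and measured.

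Meiotic prophase genes were low in members. Of 19 genes, 17 were lower by 2-fold or more and 0 higher by as much, with a median log2 ratio of -1.72 (-2.81 to -1.22). The rule kept Sycp1 low, and most other germ barcodes had high Sycp1. Against low-Sycp1 germ barcodes alone the median log2 ratio of the list was -0.56. Sycp3, an axial element protein of meiotic chromosomes, was at 251 CPM in members and 1765 CPM in other germ barcodes, and Meiob, a recombination factor, was at 9.26 CPM in members and 159 CPM in other germ barcodes. Smc1b, the meiotic cohesin subunit, was at 442 CPM in members and 889 CPM in other germ barcodes and was detected in 158 members. Mei4 was the one gene above 1, at 45.5 CPM in members and 32.4 CPM in other germ barcodes. Cell cycle lists had members on both sides. In the S phase list 4 of 16 genes were at least 2-fold higher and 1 lower. Hells, a chromatin remodeller, had the highest level, at 588 CPM in members and 558 CPM in other germ barcodes. Ung, a uracil glycosylase, was at 120.0 CPM in members and 48.7 CPM in other germ barcodes, and Gins2, a helicase subunit, at 22.5 CPM in members and 58.5 CPM in other germ barcodes. Cdt1, a replication licensing factor, was at 61.2 CPM in members and 20.6 CPM in other germ barcodes. Against Crabp1-positive barcodes, 0 of 16 S phase genes were 2-fold higher and 2 lower, beside 10.5% and 9.44% of all genes. Ratios there were 0.959 (0.777 to 1.18) for Cdt1 and 1.07 (0.920 to 1.25) for Ung. In the G2 and mitosis list 1 of 21 genes was at least 2-fold higher and 5 lower, with the mitotic kinase gene Aurkb at 73.3 CPM in members and 31.0 CPM in other germ barcodes and Cdk1 at 87.0 CPM in members and 251 CPM in other germ barcodes. Cenpf, a kinetochore protein, was at 635 CPM in members and 605 CPM in other germ barcodes, and Ccna2, cyclin A2, at 122 CPM in members and 63.2 CPM in other germ barcodes, though against low-Sycp1 germ barcodes alone its ratio was 0.989. Mki67, a proliferation marker, was detected in 100 members and was at 190 CPM in members and 249 CPM in other germ barcodes.

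The deleted gene gave few UMIs in germ barcodes. Znhit1 gave 11 UMIs in 8 members, 4.43 CPM (exact Poisson 95% interval, 2.21 to 7.92), against 101 UMIs (2.52 to 3.76 CPM) in other germ barcodes, a ratio of 1.43 (0.692 to 2.67). At this depth no difference between the classes was detectable. Whether the deleted part includes the 3′ end that this kit counts is not given, so these UMIs do not check the deletion. The 2 genes of H2A.Z differed. H2afz was detected in every member, at 641 CPM in the median and 2829 CPM in the highest, and was at 690 CPM in members and 1411 CPM in other germ barcodes, 2.04-fold lower (1.95 to 2.14). H2afv, which encodes the second H2A.Z protein, was at 788 CPM in members and 641 CPM in other germ barcodes, a ratio of 1.23 (1.17 to 1.29). The level of H2afz in Crabp1-positive barcodes was 632 CPM and in high-Sycp1 barcodes 1622 CPM. The list of H2A.Z and of the SRCAP and TIP60 complexes that place it held 21 genes. Of these, 2 were higher by 2-fold or more and 3 lower by as much in members. Over all genes the shares were 19.0% higher and 18.0% lower, so these counts do not set the list apart. Anp32e, a chaperone that removes H2A.Z from nucleosomes, was at 212 CPM in members and 59.4 CPM in other germ barcodes, a ratio of 3.57 (3.24 to 3.93), and was 2.96-fold above the Crabp1-positive barcodes (2.55 to 3.44). Trrap, a scaffold of TIP60, was at 163 CPM in members and 62.1 CPM in other germ barcodes. Dmap1, a subunit of SRCAP and TIP60, had a ratio of 0.402 (0.307 to 0.517). Srcap itself had a ratio of 1.12 (0.970 to 1.28).

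Genes that silence transposons were uneven. Of 20 genes of the piRNA pathway and transposon control, 5 were higher by 2-fold or more and 2 lower by as much. Tex15, which acts with the nuclear PIWI protein, had the highest level, at 577 CPM in members and 500 CPM in other germ barcodes. Piwil4, the nuclear PIWI protein that guides DNA methylation in fetal germ cells, was at 22.1 CPM in members and 1.47 CPM in other germ barcodes, from 55 UMIs in 41 members. Its partner Spocd1 was at 7.65 CPM in members and 0.552 CPM in other germ barcodes, from 19 UMIs in 16 members. With 18 UMIs in other germ barcodes, Spocd1 reached the minimum of 20 UMIs only through members. Morc1, which represses transposons in the germ line, was detected in 113 members and was at 114 CPM in members and 8.58 CPM in other germ barcodes, a ratio of 13.3 (11.3 to 15.8). The piRNA trimmer Pnldc1 was at 80.1 CPM in members and 25.8 CPM in other germ barcodes, and the piRNA methyltransferase Henmt1 had a ratio of 2.73 (2.14 to 3.44). The PIWI protein of meiotic cells, Piwil1, was at 15.3 CPM in members and 137 CPM in other germ barcodes, and Tdrd6, a scaffold of germ granules, gave 2 UMIs in members. Of 13 genes of DNA methylation and Polycomb, 5 were at least 2-fold higher and 1 lower. Dnmt1, the maintenance methyltransferase, was at 218 CPM in members and 117 CPM in other germ barcodes. Dnmt3b was at 85.4 CPM in members and 28.1 CPM in other germ barcodes, the histone methyltransferase gene Ehmt2 at 143 CPM in members and 48.2 CPM in other germ barcodes, and Ezh2 at 89.8 CPM in members and 221 CPM in other germ barcodes. Against Crabp1-positive barcodes, 0 of 10 measured genes of this list were 2-fold higher or lower. Over all genes 10.5% were higher and 9.44% lower there, so a count of 0 of 10 is near background. Ratios there were 0.807 (0.726 to 0.898) for Dnmt1, 0.795 (0.670 to 0.942) for Dnmt3b and 1.15 (0.999 to 1.32) for Ehmt2.

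In the glycolysis list 8 of 17 genes were higher by 2-fold or more and 3 lower by as much. Aldoc, an aldolase, was at 41.1 CPM in members and 8.12 CPM in other germ barcodes, Hk1 at 31.8 CPM in members and 8.62 CPM in other germ barcodes, and Gapdh, which has many pseudogenes that counting could mix with it, at 431 CPM in members and 198 CPM in other germ barcodes. The glucose transporter gene Slc2a3 was at 20.1 CPM in members and 140 CPM in other germ barcodes. Against Crabp1-positive barcodes, 4 of 17 glycolysis genes were at least 2-fold higher and 0 lower, beside 10.5% and 9.44% of all genes. Gapdh had a ratio of 1.08 (0.998 to 1.17) there. In the p53 and apoptosis list 2 of 20 genes were at least 2-fold higher and 4 lower, with Casp9 at 23.4 CPM in members and 9.08 CPM in other germ barcodes and Trp63 at 1 UMI in members. The cell death genes Bax and Bcl2l11 had ratios of 1.81 (1.68 to 1.94) and 1.88 (1.47 to 2.37), which were 0.994 and 0.885 against low-Sycp1 germ barcodes alone. In the list of genes that tissue dissociation induces, 4 of 17 were at least 2-fold higher and 3 lower. Jund was at 662 CPM in members, 275 CPM in other germ barcodes and 617 CPM in the Crabp1-positive barcodes among them. The heat shock genes Hspa1a and Hspa1b, near-identical copies whose reads counting could split, were at 14.5 and 16.5 CPM in members and 3.96 and 5.79 CPM in other germ barcodes. Atf3 gave 3 UMIs in members, a ratio of 0.313 (0.0636 to 0.935). Fos, Jun and Junb were lower in members, at ratios of 0.574 (0.467 to 0.698), 0.628 (0.513 to 0.762) and 0.566 (0.468 to 0.680).

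The Crabp1-positive barcodes, which are the other low-Sycp1 germ barcodes with at least 3 UMIs of the retinoic acid binding protein gene Crabp1, were the class closest in depth, with a median of 9782 UMIs. Crabp1 was also detected in 114 members, at 136 CPM in members and 435 CPM in Crabp1-positive barcodes. Its upper quartile in members was 3 UMIs, so some members differ from the Crabp1-positive barcodes only in their rule-gene sum. Against them 13130 genes were measured, and 10.5% were higher by 2-fold or more and 9.44% lower by as much in members. Of 13 stem cell genes, 10 were at least 2-fold higher and 1 lower. Ret gave 112 UMIs in members and 0 in the 334 Crabp1-positive barcodes, a ratio of 54.9 with 3 UMIs taken as the floor over the class, and the exact interval starts at 43.9. Foxf1 was at 65.6 CPM in members and 1.37 CPM in Crabp1-positive barcodes, and Ccnd2 at 303 CPM in members and 41.1 CPM in Crabp1-positive barcodes. Kit was at 88.2 CPM in members and 172 CPM in Crabp1-positive barcodes, a ratio of 0.512 (0.437 to 0.598). Uchl1 (ratio 1.03, 0.970 to 1.10) and Dmrt1 (ratio 0.997, 0.908 to 1.10) had intervals that held 1. None of 18 meiotic prophase genes and none of 21 G2 and mitosis genes was 2-fold higher or lower. Of 19 piRNA pathway and transposon genes, 6 were at least 2-fold higher and 0 lower.

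**Figure D3:**
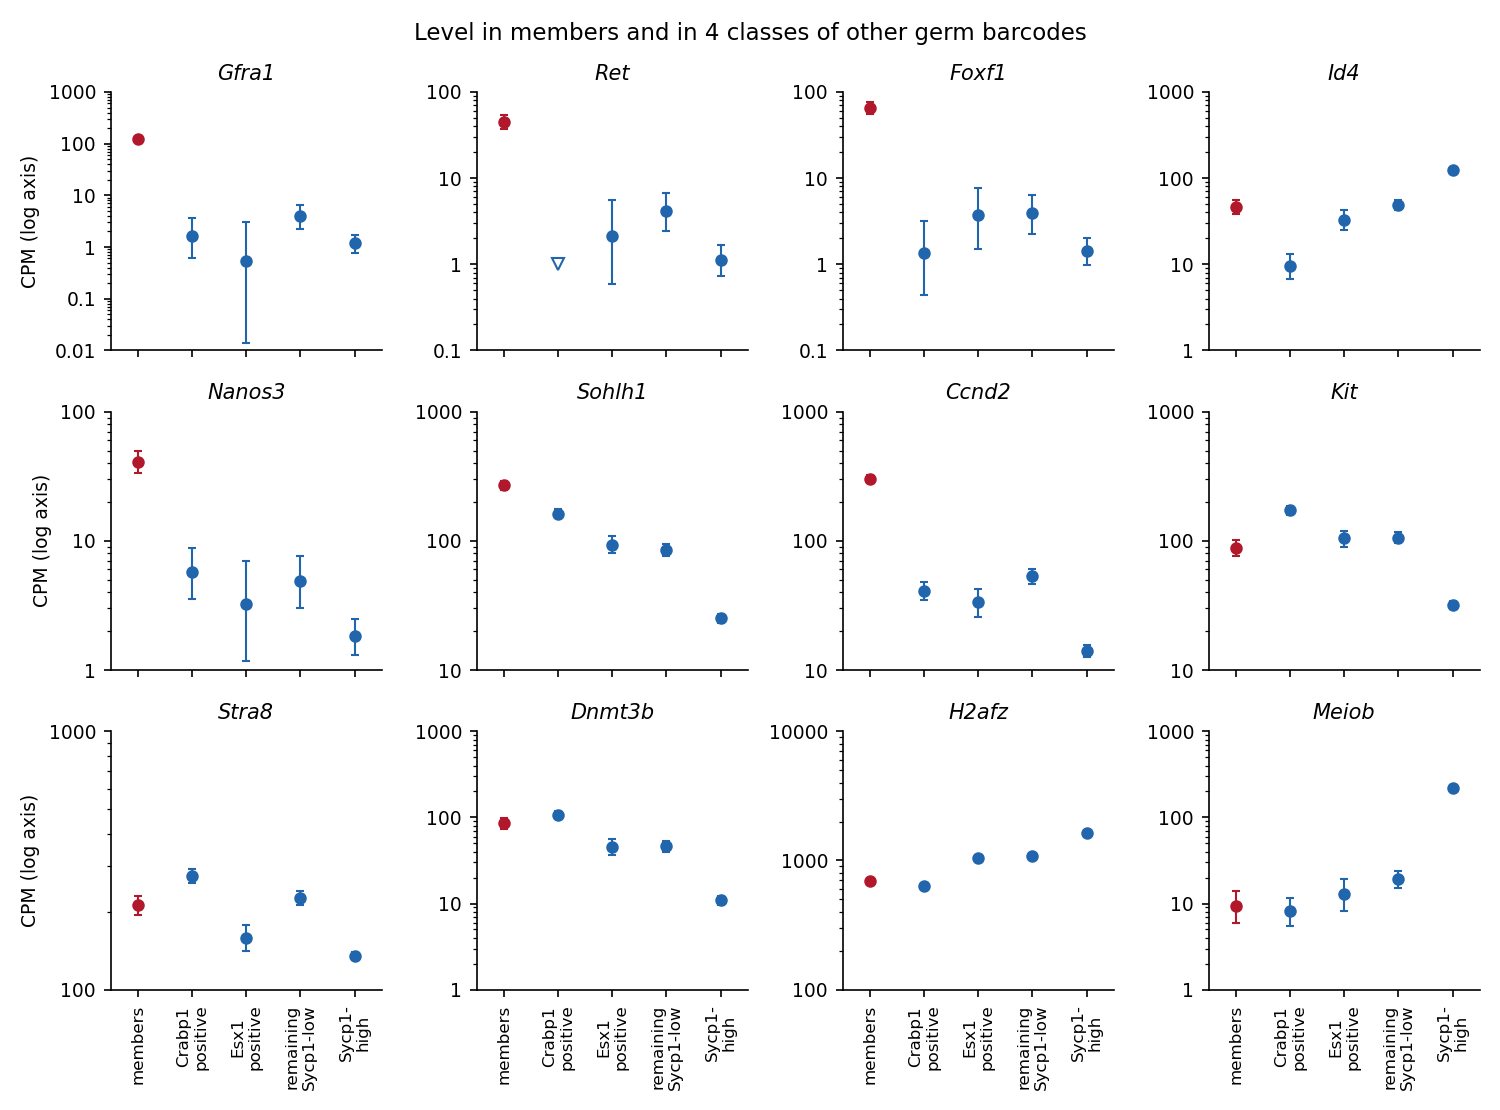
CPM (log axes, which differ between genes) of 12 genes in members (red) and in Crabp1-positive, Esx1-positive, remaining low-Sycp1 and high-Sycp1 germ barcodes (blue), with exact Poisson 95% intervals. An open triangle is the upper limit for a count of 0. Gfra1, Ret, Foxf1, Nanos3 and Ccnd2 lie highest in members, Kit and Dnmt3b highest in Crabp1-positive barcodes, and Id4, H2afz and Meiob highest in high-Sycp1 barcodes.

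Of all genes measured, the 12 with the largest lower interval bound of the ratio included Gfra1 and Glis3 of the rule and Ret, Foxc2 and Tcl1 of the lists. Foxf1, a forkhead factor known from lung and gut mesenchyme, was detected in 82 members and 1.06% of other germ barcodes, at 29.0 CPM in the median and 632 CPM in the highest member. It was at 65.6 CPM in members and 1.87 CPM in other germ barcodes, a ratio of 35.1 (26.0 to 47.9), and at 0 UMIs in the barcodes with Leydig or Sertoli markers. Large2, a glycosyltransferase gene, was detected in 84 members and was at 64.8 CPM in members and 2.21 CPM in other germ barcodes. Kcnc2, a potassium channel gene, was at 163 CPM in members and 6.56 CPM in other germ barcodes, but in only 69 members, with 47 of its 405 UMIs in 1 barcode. The homeobox gene En1 was at 18.5 CPM in members and 0.491 CPM in other germ barcodes, from 46 UMIs in 26 members. The other genes of the 12 came from single barcodes. All 32 UMIs of Gm16582 and all 33 of Gm15418 in members came from 1 barcode each, and 32 of 33 UMIs of Gm20560 from 1 barcode, so these ratios describe 3 barcodes and not the class. Among the genes with the smallest upper bound were Gm20621, Gm10505, Crisp2, Cyp19a1 and Gm21269. Crisp2, a secretory protein gene of spermatids and late spermatocytes, was at 2.01 CPM in members and 110 CPM in other germ barcodes. Cyp19a1, aromatase, gave 0 UMIs in members and 1066 in 173 other germ barcodes, which is 27.1-fold lower with the floor of 3 UMIs over members, and the exact interval of the ratio reaches up to 0.0455. Against Crabp1-positive barcodes the intervals of Cyp19a1 (up to 2.23, from 4 UMIs there), Gm21269 (up to 1.02) and Gm10505 (0.278 to 1.62) held 1. Crisp2 (ratio 0.0468, 0.0150 to 0.112) and Gm20621 (ratio 0.0288, 0.000716 to 0.168) were lower in members there too.

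Foxf1 and Foxc2 are neighbours on mouse chromosome 8 (GRCm38, GENCODE vM21), and this was noticed after their values were seen. The noncoding gene Fendrr (121054882 to 121083110, minus strand) ends 1275 bases before Foxf1 (121084386 to 121088144, plus strand), and it was at 15.7 CPM in members and 0.491 CPM in other germ barcodes, a ratio of 32.0 (17.5 to 61.4). Mthfsd, which lies between Foxf1 and Foxc2 (121116171 to 121118895, plus strand), was at 5.64 CPM in members and 4.11 CPM in other germ barcodes, a ratio of 1.37 (0.730 to 2.38). Foxl1, the next forkhead gene, gave 3 UMIs in members and 0 in other germ barcodes. The high levels in this stretch were thus those of Fendrr, Foxf1 and Foxc2, with Mthfsd near the level of other germ barcodes.

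Hox genes were low but also uneven across their 4 clusters, which was likewise noticed after their values were seen. Of 7 Hoxb genes measured, 6 were at least 2-fold higher in members, of 5 Hoxc genes 3, of 3 Hoxa genes 1 and of 6 Hoxd genes 0. At least 2-fold lower were 1 Hoxa and 2 Hoxd genes. Over all genes the shares were 19.0% higher and 18.0% lower. Hoxb8, Hoxb2, Hoxb6 and Hoxa7, with 9, 12, 16 and 19 UMIs in other germ barcodes, reached the minimum of 20 UMIs only through members. The counts of higher genes therefore favour members and are a description. Hoxb7 was at 12.9 CPM in members and 0.920 CPM in other germ barcodes, from 32 UMIs in 23 members. Hoxb4 was at 9.26 CPM in members and 0.705 CPM in other germ barcodes, and Hoxb2 at 8.45 CPM in members and 0.368 CPM in other germ barcodes. Hoxb5, inside the same cluster, was at 1.61 CPM in members and 2.61 CPM in other germ barcodes, a ratio of 0.618 (0.165 to 1.64). Hoxd8 went the other way, at 5.64 CPM in members and 13.8 CPM in other germ barcodes. So did Hoxa4, at a ratio of 0.0918 (0.0111 to 0.335), and Hoxd9, at 0.254 (0.0685 to 0.660).

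Shares of barcodes with a UMI were compared after every barcode was thinned to 3000 UMIs, which kept all 163 members, 331 of 334 Crabp1-positive and 2953 of 3121 high-Sycp1 barcodes, and 522 of 542 barcodes with Leydig markers, whose median depths were 13746, 9782, 5368 and 8640 UMIs before thinning. Glis3 was then seen in 58.9% of members, 2.72% of Crabp1-positive, 1.73% of high-Sycp1 and 5.17% of Leydig-marker barcodes, and in 89.6%, 8.68%, 4.58% and 9.04% of them without thinning. Ret was seen in 12.9% of thinned members and 0.339% of thinned high-Sycp1 barcodes and in 0 thinned Crabp1-positive and Leydig-marker barcodes. Without thinning the share of Ret was 39.9% in members and 0.185% in Leydig-marker barcodes. Kit was seen in 18.4% of thinned members, 37.2% of thinned Crabp1-positive and 41.6% of thinned Leydig-marker barcodes, so that its share in members lay below the share in a somatic class. Stra8 was seen in 31.9% of thinned members, 42.3% of thinned Crabp1-positive and 1.72% of thinned Leydig-marker barcodes. Znhit1 was seen in 1.23% of thinned members, 0.906% of thinned Crabp1-positive and 4.41% of thinned Leydig-marker barcodes, and in 4.91%, 2.99% and 14.4% of those classes without thinning. Barcodes with Leydig markers thus held it more often than members. What part RNA of other cells had in these shares was not tested. Thinned members held a median of 1826 genes, Crabp1-positive barcodes 1790 and high-Sycp1 barcodes 1773.

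Members were then compared among themselves by Gfra1, a gene of the rule. A member without Gfra1 had to pass by the other rule genes, of which Trim71 and Zbtb16 were also at 82.4 and 54.8 CPM in Crabp1-positive barcodes, so the choice of members shapes this contrast. Gfra1 was seen in 91 members and not in 72, at median depths of 13059 and 14829 UMIs. Ret was seen in 52.7% of the 91 and 23.6% of the 72. Kit was seen in 34.1% of members with Gfra1 and 58.3% of members without it, and Stra8 in 42.9% of members with Gfra1 and 65.3% of members without it. Kit and Stra8 went together, with Stra8 in 78.1% of the 73 members with Kit and 32.2% of the 90 without. Members with Kit were deeper, at a median of 17407 UMIs, than members without Kit, at 11624 UMIs, and depth raises every such share.

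As a description on the same footing, members were ranked by the part of their rule-gene UMIs that came from Gfra1, Etv5 and Egr4. The 54 members above 34.6% form the upper range and the 55 at or below 19.7% the lower range, and since 34 and 33 of them lie within 5 points of a limit, these are ranges of a score and not cell types. In the upper range Egr4 gave 233 UMIs, Gfra1 151 and Etv5 32. Egr4 and Gfra1 were not always high together. In 1 member Egr4 was at 833 CPM and Gfra1 at 0, and in another Gfra1 was at 1326 CPM and Egr4 at 0. The upper range thus mixes members high in either gene. Of 9256 genes measured, 2.33% were higher by 2-fold or more and 5.18% lower by as much in the upper range, with a median log2 ratio of -0.07. All 9 measured stem cell genes outside the rule had ratios above 1, and 5 of them were at least 2-fold higher, with a median log2 ratio of 1.14 (0.49 to 2.22). Tcl1 gave 36 UMIs in the upper and 10 in the lower range, Etv4 21 in the upper and 7 in the lower, and Shisa6 21 in the upper and 6 in the lower. Id4 was at 67.8 CPM in the upper and 30.7 CPM in the lower range, a ratio of 2.21 (1.36 to 3.63), and Ret at 57.9 CPM in the upper and 30.7 CPM in the lower range. Of 12 measured genes of the differentiation list, 2 were higher by 2-fold or more in the upper range and 3 lower by as much. Kit was at 33.9 CPM in the upper and 138 CPM in the lower range, a ratio of 0.246 (0.152 to 0.383). The 5 Leydig markers, all detected in both ranges, were lower in the upper range as well, at a summed 203 CPM in the upper and 391 CPM in the lower range. Per barcode their sum had a median of 107 CPM and a highest value of 5273 CPM in the upper range, and a median of 113 CPM and a highest value of 8095 CPM in the lower range. The peritubular myoid markers summed to 33.9 CPM in the upper and 126 CPM in the lower range, with 4 of 5 detected in the upper and 5 of 5 in the lower range. Their part in the values of Kit was not tested. Stra8 was at 107 CPM in the upper and 269 CPM in the lower range, and Crabp1 at 77.7 CPM in the upper and 183 CPM in the lower range. Dnmt3b, which rises with differentiation, was at 56.5 CPM in the upper and 105 CPM in the lower range. Ccnd2 and Rhox13 ran against these, Rhox13 at 33.9 CPM in the upper and 15.9 CPM in the lower range (ratio 2.13, 1.07 to 4.37) and Ccnd2 at 386 CPM in the upper and 177 CPM in the lower range, a ratio of 2.18 (1.79 to 2.66). The same held for Dusp6, at 50.9 CPM in the upper and 19.1 CPM in the lower range, and for Ddit4, at 46.6 CPM in the upper and 18.0 CPM in the lower range.

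**Figure D4:**
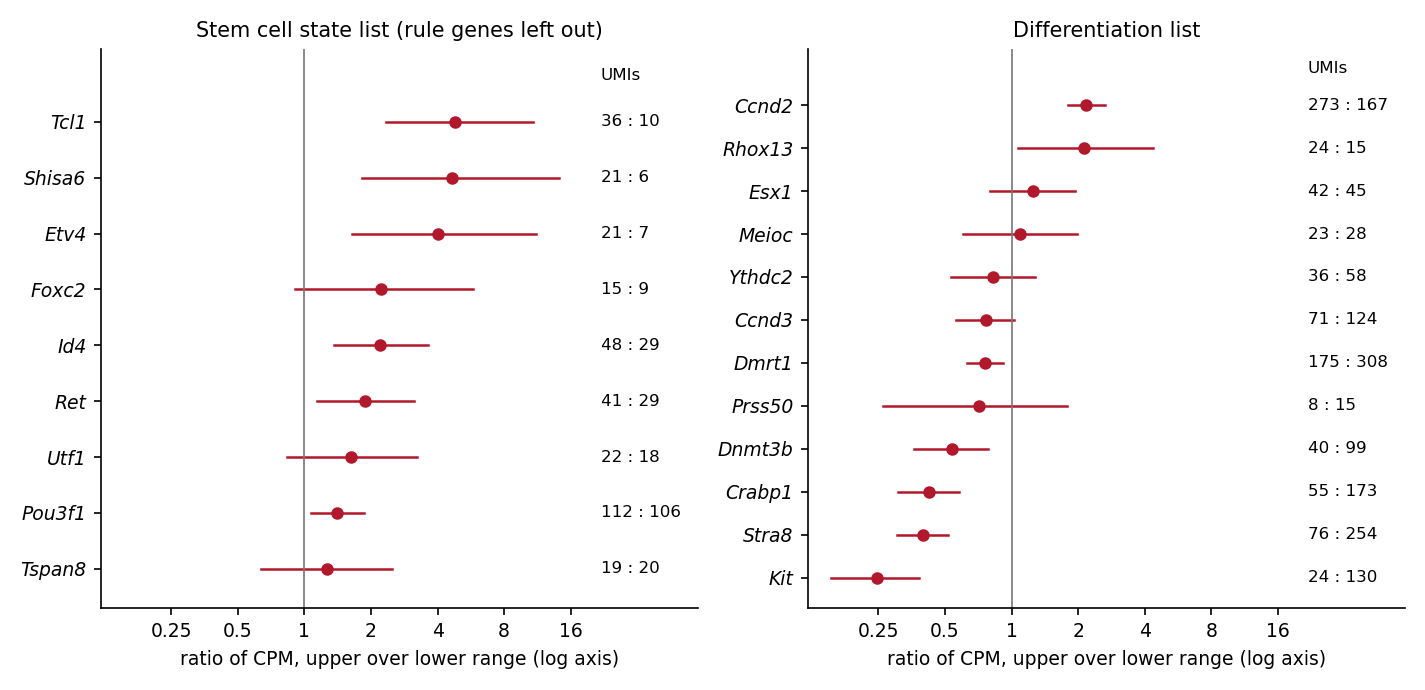
Ratio of CPM (log axis) in the 54 members of the upper over the 55 of the lower range, with exact 95% intervals, for the measured genes of the stem cell and differentiation lists, and UMIs in the upper and the lower range at the right of each panel. All 9 stem cell genes lie right of 1, while Kit, Stra8, Crabp1 and Dnmt3b lie left of it with intervals that leave out 1.

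None of 21 G2 and mitosis, 16 S phase, 15 meiotic prophase or 20 H2A.Z-related genes was 2-fold higher or lower in the upper range. Over all genes 2.33% were higher and 5.18% lower, so a count of 0 in lists of this size does not set them apart. Single genes still differed by less than 2-fold. Mki67 was at 134 CPM in the upper and 235 CPM in the lower range, a ratio of 0.570 (0.444 to 0.729). Cdk1 went the other way, at 106 CPM in the upper and 56.2 CPM in the lower range, a ratio of 1.89 (1.31 to 2.73). H2afz was at 794 CPM in the upper and 634 CPM in the lower range, a ratio of 1.25 (1.11 to 1.41). All 13 measured glycolysis genes had ratios above 1, with a median log2 ratio of 0.32 (0.11 to 0.80), and none reached 2-fold. Among all genes, the 5 furthest up by interval bound included Gfra1, which the score used. Nefm, a neurofilament gene, gave 70 UMIs in 22 members of the upper range and 10 UMIs in 6 of the lower range, a ratio of 9.33 (4.79 to 20.3), and 7.83 without its highest barcode. The rest of the 5 came from few barcodes, Olfr1420 with 33 UMIs in 3 upper members, 5730412P04Rik with 27 UMIs in 6 upper members, and A330040F15Rik with 30 UMIs in 2 upper members. Of the UMIs of A330040F15Rik 29 came from 1 barcode, and without it the ratio turned to 0.686. Furthest down were Gm16554, with 1 UMI in the upper range and 52 UMIs in 12 lower members, and Morrbid, Trpm5, 1700057H15Rik and Gm15418, each with 0 UMIs in the upper range. In the lower range Morrbid gave 64 UMIs in 6 members, Trpm5 57 in 5, 1700057H15Rik 37 in 4 and Gm15418 33 in 1.

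Such genes were counted in a way that was chosen after they were seen. A barcode was counted when it held at least 20 UMIs of a gene that was at most 5 CPM over the rest of the germ barcodes and was seen in at most 10% of the barcodes of its class. This was so in 20 of 163 members (12.3%, 7.66% to 18.3%), 60 of 334 Crabp1-positive barcodes (upper bound 22.5%), 15 of 227 Esx1-positive (6.61%), 34 of 583 remaining low-Sycp1 (5.83%) and 21 of 3121 high-Sycp1 barcodes (0.673%, 0.417% to 1.03%). Among barcodes of 5000 to 20000 UMIs it was so in 12 of 133 members (9.02%, 4.75% to 15.2%), 53 of 301 Crabp1-positive (17.6%), 15 of 161 Esx1-positive (9.32%), 30 of 288 remaining low-Sycp1 (10.4%) and 16 of 1605 high-Sycp1 barcodes (0.997%, 0.571% to 1.61%). Depth still differed inside this window, with medians of 12936 UMIs in members, 9782 in Crabp1-positive and 7565 in high-Sycp1 barcodes, and a fixed minimum of 20 UMIs is easier to reach in deep barcodes. The share in members lay below that in Crabp1-positive barcodes and above that in high-Sycp1 barcodes. Examples in members are the small GTPase gene Rhoh, with 34 of 12936 UMIs in 1 barcode and 12 UMIs in all other members, Ece2, with 28 UMIs in 1 barcode and 1 in all other members, and the vomeronasal receptor gene Vmn2r126, with 38 UMIs in 1 barcode and 26 in another. Vmn2r126 belongs to a family of near copies, so its counts are uncertain.

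**Figure D5:**
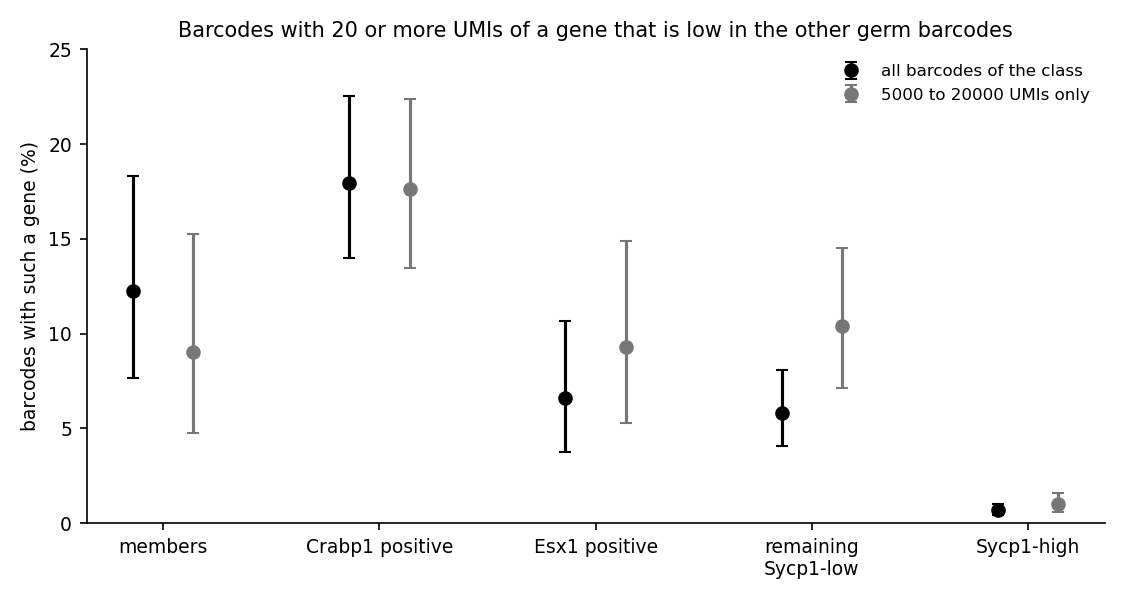
Share of barcodes (percent, with Clopper-Pearson 95% intervals) that held at least 20 UMIs of a gene otherwise low in germ barcodes, in members and 4 other germ classes, over all barcodes (black) and those of 5000 to 20000 UMIs (grey). At 5000 to 20000 UMIs members lie at 9.02% and high-Sycp1 barcodes at 0.997%.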

How the data were processed

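Single-cell RNA-seq counts of the day 35 Znhit1 knockout testis were used as the authors deposited them, as UMI counts per gene and barcode. Per the submitters' processing notes, Cell Ranger 7.1.0 and STAR were used with mm10, and filters before deposit are not given in the sources used here. Of the remaining 3 libraries no counts are analysed here. UMIs were summed over barcodes and scaled to CPM in Python 3.11.15 (numpy 2.4.6, scipy 1.17.1, pandas 2.3.3). Levels have exact Poisson intervals, ratios exact conditional binomial intervals and shares Clopper-Pearson intervals, all at 95%. A gene was measured with at least 20 UMIs in both classes together, and counts of 0 were set to a floor of 3 UMIs over the class. In simulated counts of members over other germ barcodes, 96.3% of the intervals for 17175 genes held the true ratio. The simulated counts were drawn from the model that the intervals assume, so this checks the calculation only. Clumping of UMIs in single barcodes was not simulated, and the intervals leave it out. Scrublet (scanpy 1.11.5) called doublets, which were kept. Classes of comparison were other germ barcodes with Sycp1 under 1000 CPM and at least 3 Crabp1 UMIs, or at least 2 Esx1 UMIs, or neither, and those at or above 1000 CPM. Leydig- and Sertoli-marker barcodes had no Ddx4 or Dazl UMI and at least 5 UMIs of their markers. The members and gene lists were chosen with earlier results of these data known. Genes were named by rule, as those of the member rule, Znhit1 and the H2A.Z genes, the 12 and 6 genes of most extreme interval bounds, and in each list the highest level, the 2 largest ratios and the smallest, and between upper and lower range the 5 most extreme each way. Other list members were named after their values were seen. A gene that the rule names is not reported here. Alternatives changed the thresholds, mitochondrial limit, doublets, depth, weighting, comparison class, UMI minimum and scaling.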

Additional observations from a re-analysis of the deposited data

Results flagged for a closer look

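The mitochondrial limit set aside barcodes that otherwise met the whole rule, a signal outside the main comparison. There were 65 of them among 557 germ barcodes over 10% mitochondrial UMIs (11.7%), with a median of 11.6% and a highest value of 28.2% mitochondrial UMIs and a median depth of 11185 UMIs. Glis3 was at 405 CPM in these 65 barcodes and 411 CPM in members, and Egr4 at 247 CPM in the 65 and 190 CPM in members. Gfra1 was at 62.2 CPM in the 65 and 124 CPM in members, Ret at 31.1 CPM in the 65 and 45.1 CPM in members, and Stra8 at 136 CPM in the 65 and 212 CPM in members.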

How the results depend on the processing

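No paired analysis was possible because there is 1 library per group and no test. The share of members among germ barcodes was 5.22% with at least 5 and 2.55% with at least 12 UMIs of the rule genes, 4.42% with at least 8 Ddx4 and Dazl UMIs, 5.35% at 5000 to 20000 UMIs, 4.55% with mitochondrial UMIs up to 20%, and 4.57% with no such limit, which was added after seeing the data. With mitochondrial UMIs at most 5% it was 0.661%, from 8 members. With those 8 members 6488 genes were 2-fold higher and 1754 lower, list medians on the log2 scale were 2.16 for receptors, 0.25 for G2 and mitosis, -0.63 for the piRNA list and 0.89 for p53, and Csf1r (7.08), Lrat (1.71), Trp63 (1.85) and Atf3 (8.76) turned to ratios above 1, with 0 counts set to the floor. Against low-Sycp1 germ barcodes 1520 genes were 2-fold higher, the progenitor median was 1.09 and the meiotic median -0.56, and Ccna2 (0.989), Bax (0.994) and Bcl2l11 (0.885) turned to ratios below 1. With a minimum of 1 UMI 6428 genes were 2-fold higher. The cause was not tested. Of 1040 ratios of 80 named genes under 13 alternatives, 785 stayed within their interval, 248 moved and 7 turned direction. Against low-Sycp1 barcodes 55 of 80 moved by over 1.5 times, and without the highest barcode of each gene 7 did. Depth limits genes with few UMIs, such as Nanos2, Eomes and Znhit1.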
